A study of Bos taurus with 2 samples.

Results

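The genes described here belong to the ectodysplasin, Hedgehog and Notch pathways, together with transcriptional regulators of the hair follicle and other skin appendages. They were chosen by gene symbol from a list of 53 genes, and a gene counted as measured when at least 1 noncontrol probe carried an accession that the RefSeq table of the bovine genome pairs with its symbol. In this way 20 of the 53 genes were found, with 39 probes, out of 9647 genes with 20587 probes in all.

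Muzzle RNA of 1 light-muzzle and 1 dark-muzzle HanWoo, the native Korean cattle, was hybridised to 1 Agilent 1-colour bovine array each. Both animals were females of 30 months; the tissue is labelled as yellow in the first and black in the second, and the study describes them as representative cows with a yellow coat that differ in the black pigment of the muzzle. The sample is a whole piece of the front of the muzzle, so that epidermis, glands, vessels, muscle and dermis are read together. Since each muzzle colour is represented by 1 animal, there is no replicate to check a difference against, no test could be run, and a difference between the colours cannot be told apart from a difference between these cows.

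These pathways pattern the appendages of the skin. Ectodysplasin (EDA) signals through its receptors and TRAF adaptors to NF-kB and is known for the placement of hair follicles, teeth and glands; cattle with a defective EDA gene have sparse hair and few muzzle glands. Hedgehog ligands are released from epithelial cells, bind Patched on neighbouring cells and thereby free Smoothened, which lets GLI factors enter the nucleus. Notch receptors are cleaved after contact with a Delta or Jagged ligand on the next cell, and the freed part joins RBPJ to switch on the HES and HEY repressors, which guide differentiation in the epidermis, the follicle and the vessel wall.

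Levels are given as log2 of the background-subtracted intensity (the processed signal) with 0 at the 75th percentile of the array, which corresponds to intensities of 1143 (light muzzle) and 1136 (dark muzzle). A log2 ratio subtracts the light-muzzle level from the dark-muzzle level, so that positive values mean more signal from the dark muzzle, and 2-fold is a log2 ratio of 1. The error after a ratio of a single probe is the error that the scanner software estimates for the spots, on the log2 scale; it covers the reading of the spots and not the spread between animals. Spots well above background made up 78.8% of the light-muzzle array and 81.9% of the dark-muzzle array, and the lowest level well above background was -5.78 and -5.81. The levels of different probes are not comparable with each other, because probes differ in how well they bind.

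Keratinocyte markers were present in both muzzles, with 6 of 6 measured genes of basal keratinocytes and 7 of 7 of suprabasal keratinocytes well above background on each array. The suprabasal genes were all above 0 and 4 of them past 2-fold, with a median log2 ratio of 1.26 and a summed level that went from 184 to 493 times the 75th percentile. Of the basal genes 5 were below 0 and 1 was at least 2-fold higher, with a median of -0.46 and summed levels of 284 and 239. Of 7 measured melanocyte genes, 5 were above and 2 below 0, with a median of 1.34 and summed levels of 1.86 and 4.89. Of these 7 genes, 4 were at least 2-fold higher and 0 at least 2-fold lower. Of all genes, 9.87% were at least 2-fold higher and 6.45% at least 2-fold lower. Of 9 genes of the dermal papilla and fibroblasts, 8 were below 0 and 2 at least 2-fold lower, with a median of -0.66 and summed levels of 48.8 and 32.0. For skeletal muscle, all 12 measured genes were higher in the dark muzzle, with a median log2 ratio of 3.03 and a summed level that went from 185 to 1290. Of 10 serous gland genes with a ratio, 6 were at least 2-fold lower and 1 was at least 2-fold higher, with a median of -2.65 and a summed level that went from 232 to 16.6. Since probes differ in how well they bind, the summed levels are weighted toward the brightest genes and do not measure cell numbers. Examples are KRT10 of the suprabasal genes, at 6.92 and 8.50, and PIP of the serous gland, at 7.39 in the light muzzle. In whole tissue, fewer cells of a type and less RNA per cell cannot be told apart, and the part of these cell types in the values below was not tested.

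Of the 20 measured genes, DLL4, SUFU and DISP1 (3 genes) were higher in the dark muzzle by at least 2-fold and 0 were lower by as much. Across all 8903 genes with a ratio, 9.87% were at least 2-fold higher and 6.45% at least 2-fold lower, against which the pathway genes gave 15.0% and 0%. The median log2 ratio of the 20 genes was 0.20 and that of all genes 0.066. The median size of the ratio, regardless of its sign, was 0.42 for the 20 genes and 0.38 for all genes. At a smaller fold of 1.5, MFNG joined the higher genes, while HES6, GLI1 and NUMB were lower, which gave 4 higher and 3 lower genes. The shares of all genes at this fold were 19.9% higher and 13.5% lower. At 3-fold, DLL4 and SUFU were higher and 0 genes lower, with shares of all genes of 4.7% and 3%. The 13 genes within 1.5-fold lay between -0.41 and 0.58, with 10 above and 3 below 0.

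**Figure D1:**
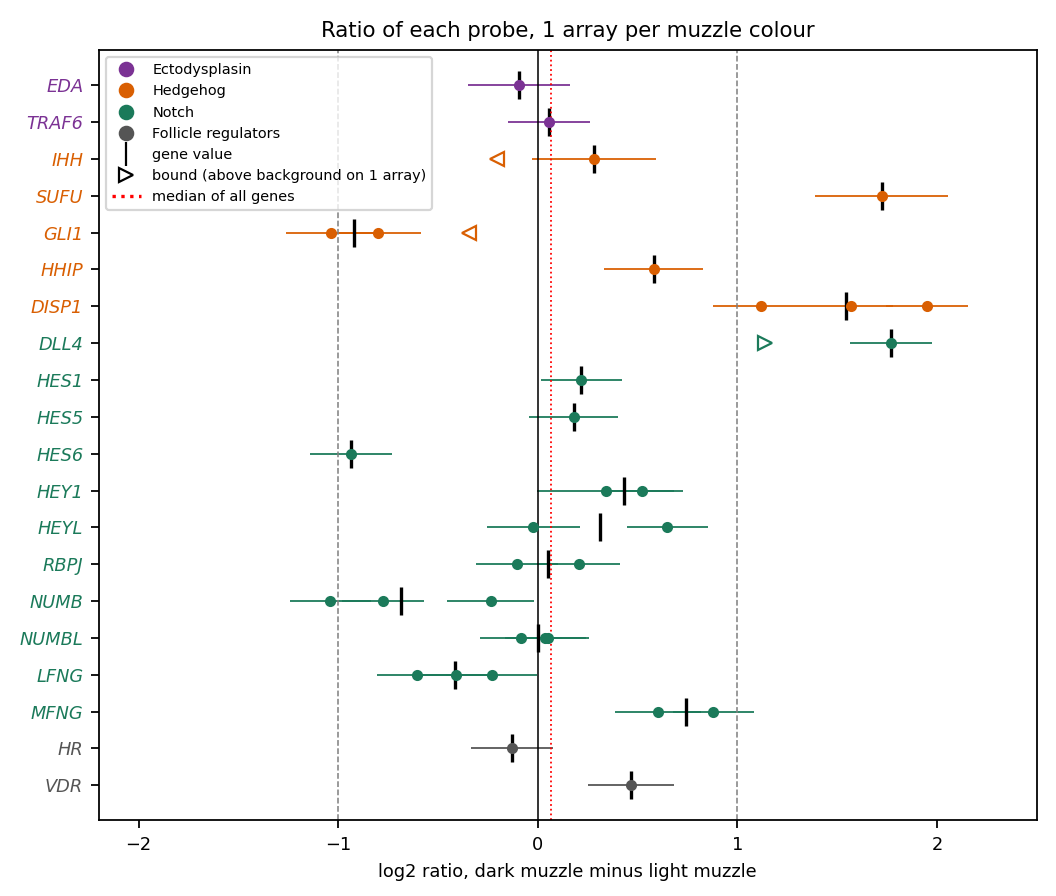
Log2 ratio (dark muzzle minus light muzzle) of each probe, with 1 row per gene. Points are probes well above background on both arrays with the spot error that the scanner software estimates; open triangles are bounds from probes above background on 1 array; black ticks are gene values, dashed lines mark 2-fold and the dotted red line marks the median of all genes, 0.066. The probes of DISP1, SUFU and DLL4 lie to the right of the 2-fold line, and 1 probe each of GLI1 and NUMB lies to the left of -1.

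The same count was made over single probes. Of 36 probes of these genes with a ratio, 6 (16.7%) were higher in the dark muzzle by at least 2-fold and 2 (5.56%) were lower. Among all probes with a gene symbol the shares were 10.5% and 6.33%. The 6 higher probes belonged to DISP1 (3), DLL4 (2) and SUFU (1), and the 2 lower probes to GLI1 and NUMB. Of all 39 probes, 33 were well above background on both arrays, 1 on the dark-muzzle array alone, 2 on the light-muzzle array alone and 3 on neither.

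**Figure D2:**
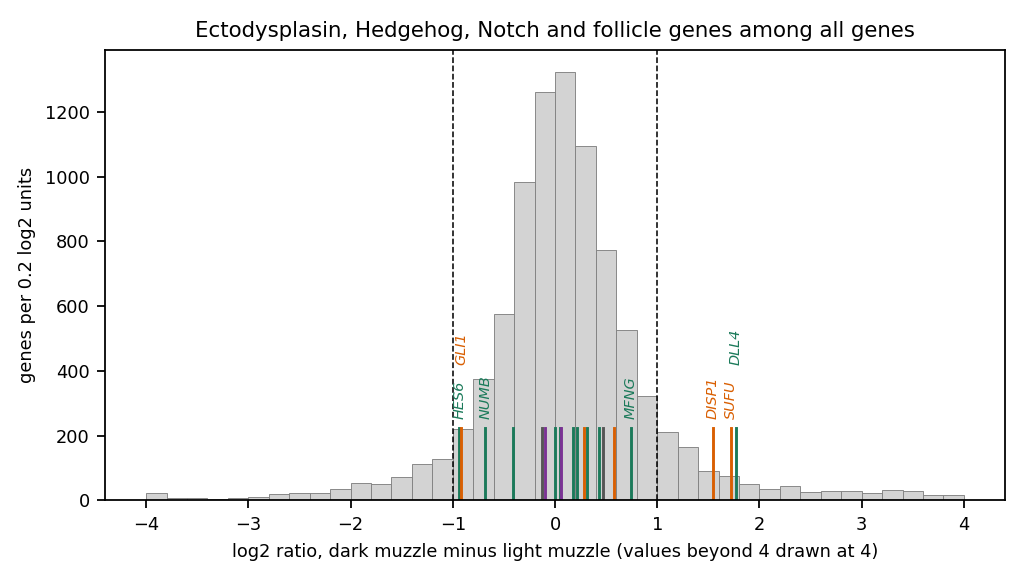
Histogram of the log2 ratios of all 8903 genes with a symbol and a ratio (horizontal axis, dark minus light; vertical axis, genes per bin), with a coloured line for each of the 20 pathway genes in purple (ectodysplasin), orange (Hedgehog), green (Notch) or grey (follicle regulators). Genes past 1.5-fold are named, and dashed lines mark 2-fold; most lines stand in the body of the distribution, while DISP1, SUFU and DLL4 stand in its right flank.

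Of the 5 ectodysplasin genes EDA and TRAF6 were measured, each with 1 probe. EDA, the ligand, was at a log2 level of -4.30 on the light-muzzle array and -4.40 on the dark-muzzle array, which is a log2 ratio of -0.095 ± 0.26 (spot error, 1 probe). TRAF6, a ubiquitin ligase that passes receptor signals on to NF-kB, went from 0.43 to 0.49, a ratio of 0.057 ± 0.20. Both ratios were smaller than their spot error. The probe of EDA was dim, within 1.5 log2 units of the lowest level well above background. The receptors EDAR and EDA2R and the adaptor EDARADD were not analysed here. Of 24 further genes of this pathway and of NF-kB signaling, 15 had a ratio. Of these, 1 was at least 2-fold higher and 0 at least 2-fold lower, beside 9.87% and 6.45% of all genes. The higher gene was TRAF5, another TRAF adaptor, with a log2 ratio of 1.99 from probes at 1.78, 1.99 and 2.21. In the light muzzle these probes were dim, at -3.66, -5.23 and -4.91. With another background correction, described below for SUFU, the ratio of TRAF5 was 1.20. A dimmer probe was above background in the dark muzzle alone, with a lower bound of 1.36. Next in size were TNFRSF19, a TNF receptor related to EDAR, at -0.72 from 1 probe, and NFKBIA, the inhibitor that holds NF-kB in the cytoplasm, at 0.64 from 4 probes. The median of the 15 genes was 0.14.

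In the Hedgehog branch the gene for ligand release and a gene for an inhibitor were higher in the dark muzzle, while GLI1 was lower. DISP1 (Dispatched) releases the lipid-bound ligand from the cell that makes it. Its 3 probes had log2 levels of -1.41, -3.10 and -4.07 in the light muzzle and 0.54, -1.53 and -2.95 in the dark muzzle. Every probe was higher in the dark muzzle, with log2 ratios of 1.95, 1.57 and 1.12. The gene value was 1.55 ± 0.42 (SD between probes, n = 3 probes), or 2.92-fold. This was above the ratios of 95.2% of all genes. Among the 20 genes DISP1 was the only one at least 2-fold higher for which more than 1 probe was measured on both arrays.

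SUFU holds GLI factors back in the cytoplasm and so restrains the pathway. Its only probe went from -5.33 in the light muzzle to -3.60 in the dark muzzle, intensities of 28.5 and 93.4, which is a log2 ratio of 1.72 ± 0.33 or 3.30-fold. In the light muzzle the probe was barely above the detection limit of that array, and the size of the ratio depended on the processing. Under normexp, another background correction, which here also added a constant of 50 to each intensity, the ratio of SUFU was 0.70 and short of 2-fold. An added constant by itself draws the ratios of dim probes toward 0. The part of the constant and that of the background correction were not separated.

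GLI1 is both a transcription factor of the pathway and a target gene that is commonly used to read its activity. The pair of probes measured on both arrays had levels of -2.47 and -2.59 in the light muzzle and -3.27 and -3.63 in the dark muzzle. Their ratios of -0.80 and -1.04 gave a gene value of -0.92 ± 0.17 (SD between probes, n = 2 probes), or 1.89-fold lower in the dark muzzle. The remaining, dim probe was above background in the light muzzle alone and gave a bound of -0.34, smaller than its spot error of 0.43. GLI1 was thus lower with both probes measured on both arrays but did not reach 2-fold, and under normexp its ratio was -0.55. HHIP, a decoy receptor and likewise a target of the pathway, had 1 of 3 probes above background, at -4.32 in the light and -3.74 in the dark muzzle. Its ratio was 0.58 ± 0.25, opposite in sign to that of GLI1. IHH, one of the ligands, was near the detection limit. The probe of IHH measured on both arrays had a ratio of 0.28 ± 0.31, and the other was above background in the light muzzle alone, with a bound of -0.20, so that no direction can be given.

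**Figure D3:**
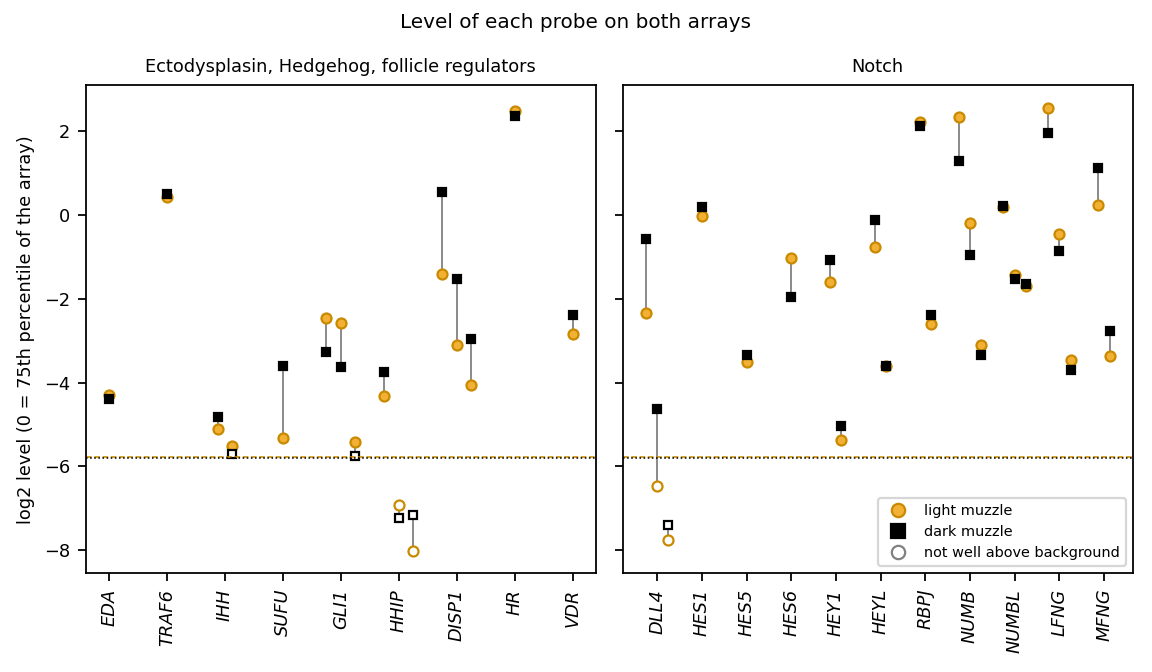
Log2 level of each probe (vertical axis, 0 at the 75th percentile of the array) in the light muzzle (yellow circles) and the dark muzzle (black squares), by gene, with a grey line joining the same probe. Open symbols are not well above background, and the horizontal lines mark the lowest level well above background, -5.78 and -5.81; the longest joins belong to DLL4, DISP1 and SUFU, and the light-muzzle level of SUFU lies just above the limit.

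The ligands SHH and DHH, the receptor PTCH1, the transducer SMO, the coreceptors CDON, BOC and GAS1, and GLI2 and GLI3 were not analysed here. Over the 5 measured Hedgehog genes the median log2 ratio was 0.58, with 4 above and 1 below 0. Among 34 further Hedgehog genes, 15 had a ratio, with a median of 0.051. Of these, 0 were at least 2-fold higher and 1 at least 2-fold lower, beside 9.87% and 6.45% of all genes. That gene was CCND1 (cyclin D1), a cell cycle gene that Hedgehog signaling can switch on, which went from 3.39 to 2.34, a ratio of -1.05 from 1 probe. The study also lists CCND1 among its genes lower in the dark muzzle, but the fold decrease it prints is well below 2-fold. It also measured CCND1 by RT-PCR in more cows of each colour.

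In the Notch branch the ligand DLL4 was higher in the dark muzzle, with a ratio close to those of SUFU and DISP1. Which of these 3 genes came first depended on the processing: with the brightest probe of a gene DISP1 was at 1.95 and DLL4 at 1.77, and without a filter on dim probes DLL4 was at 1.32, below SUFU and DISP1. DLL4 is the Delta ligand of the vessel wall, where it marks sprouting and arterial endothelium. Its brightest probe went from -2.34 in the light muzzle to -0.57 in the dark muzzle on the log2 scale, intensities of 225 and 765. The ratio was 1.77 ± 0.21 (spot error), or 3.41-fold, above those of 96.1% of all genes. Another probe was well above background in the dark muzzle alone and was at least 2.20-fold higher there, and the last was above background in neither muzzle. The direction of a bound is fixed once a probe is above background in the dark muzzle alone. The direction of DLL4 therefore rests on its brightest probe.

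Markers of endothelium moved in the same direction as DLL4. Of 9 listed genes 8 were measured, all of them well above background on both arrays and above 0, with log2 ratios from 0.26 to 1.34 and a median of 0.83. Of these, 3 were at least 2-fold higher and 0 lower, beside 9.87% and 6.45% of all genes. Their summed level went from 5.51 to 11.4 times the 75th percentile. Of the 5 measured genes of mural cells, which wrap the vessels, 4 were above 0 and 1 was at least 2-fold higher, with a median of 0.086. The gene past 2-fold was RGS5, with a log2 ratio of 1.74, close to that of DLL4. The summed level of the mural genes was 27.2 in the light and 29.7 in the dark muzzle. Most of that sum came from ACTA2, which was at 4.60 and 4.69 on the log2 scale. The ratio of DLL4 from its brightest probe lay above the range of the endothelial markers. The probe above background in the dark muzzle alone gave a lower bound of 1.14, which cannot place its ratio inside or above that range. Without a filter on dim probes DLL4 was at 1.32, below the highest endothelial ratio of 1.34. That value averages in the probe that was above background in neither muzzle. The part of vessel cells in the ratio of DLL4 was not tested.

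The vessel-associated target repressors HEY1 and HEYL were higher in the dark muzzle by less than 1.5-fold in their gene values. HEY1 had probe ratios of 0.52 ± 0.21 and 0.34 ± 0.34, from levels of -1.61 and -5.38 in the light and -1.09 and -5.04 in the dark muzzle. HEYL had 1 probe at 0.65 ± 0.20, from -0.78 to -0.13, and another at -0.022 ± 0.23, from -3.59 to -3.62. The probes of HEYL differed by 0.67, more than their spot errors, so that its gene value of 0.31 ± 0.47 (SD between probes, n = 2 probes) stands for no single measurement.

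Of the HES repressors, HES1 and HES5 were close to level and HES6 was lower. HES1, a Notch effector in many epithelia, went from -0.040 to 0.18, a ratio of 0.22 ± 0.20. HES5 went from -3.52 to -3.34, a ratio of 0.18 ± 0.22. HES6, which differs from its relatives in that it works against HES1 and promotes differentiation, went from -1.03 in the light to -1.96 in the dark muzzle. Its ratio was -0.94 ± 0.21, or 1.91-fold lower, just short of 2-fold, and only 7.21% of all genes had a lower ratio. Each of the HES genes was read by 1 probe. Over the 5 measured target repressors the median was 0.22, with 4 above and 1 below 0. RBPJ, the DNA-binding partner of the cleaved receptor, had probe ratios of -0.10 ± 0.20 and 0.21 ± 0.21 and a gene value of 0.051, so that neither probe was farther from 0 than its spot error. HES2, HES4 and HEY2 were not analysed here.

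The genes that tune the receptor went in both directions. Fringe enzymes add a sugar to Notch receptors and so shift their preference between Delta and Jagged ligands. MFNG (manic fringe) was higher in the dark muzzle with both of its probes, which went from 0.23 to 1.11 and from -3.37 to -2.77. Its gene value was 0.74 ± 0.20 (SD between probes, n = 2 probes), or 1.67-fold. LFNG (lunatic fringe) was lower in the dark muzzle with all of its 3 probes, at log2 ratios of -0.60, -0.41 and -0.23. The brightest of them went from 2.55 to 1.95, and the gene value was -0.41 ± 0.19 (SD between probes, n = 3 probes). The ratios of both fringe genes differed by 1.15, and the ratios of their probes did not overlap.

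NUMB binds the receptor inside the cell and blocks its signal, and NUMBL is its close relative. The 3 probes of NUMB went from 2.33 to 1.29, from -0.19 to -0.96 and from -3.11 to -3.35. All were lower in the dark muzzle, with ratios of -1.04, -0.77 and -0.24 and a gene value of -0.68 ± 0.41 (SD between probes, n = 3 probes), or 1.61-fold lower. By its brightest probe alone NUMB was 2.06-fold lower. NUMBL did not follow it. Its 3 probes lay between -0.085 and 0.051, with a gene value of 0.00099 ± 0.075 (SD between probes, n = 3 probes), the smallest SD between probes among the 9 genes for which it could be computed. The ratios of NUMBL and NUMB differed by 0.68.

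The receptors NOTCH1, NOTCH2 and NOTCH4, the ligands JAG1, JAG2, DLL1 and DLL3, the coactivator MAML1 and the fringe gene RFNG were not analysed here. Over the 11 measured Notch genes the median log2 ratio was 0.18, with 8 above and 3 below 0. Of 46 further Notch genes, 23 had a ratio, with a median of -0.14. Of these, 0 were at least 2-fold higher and 3 at least 2-fold lower, beside 9.87% and 6.45% of all genes. NCSTN (nicastrin), a subunit of the gamma-secretase that cleaves the receptor, had a ratio of -1.12, but its probes at -1.63 and -0.61 differed by 2-fold. DTX3, of the Deltex family of ubiquitin ligases that act on Notch, went from 3.13 to 2.03, a ratio of -1.10. MAML2, a coactivator of the Notch and RBPJ complex, went from -3.01 to -4.08, a ratio of -1.07. Under normexp NCSTN was at -0.79 and MAML2 at -0.45, short of 2-fold, and with the brightest probe NCSTN was at -0.61.

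**Figure D4:**
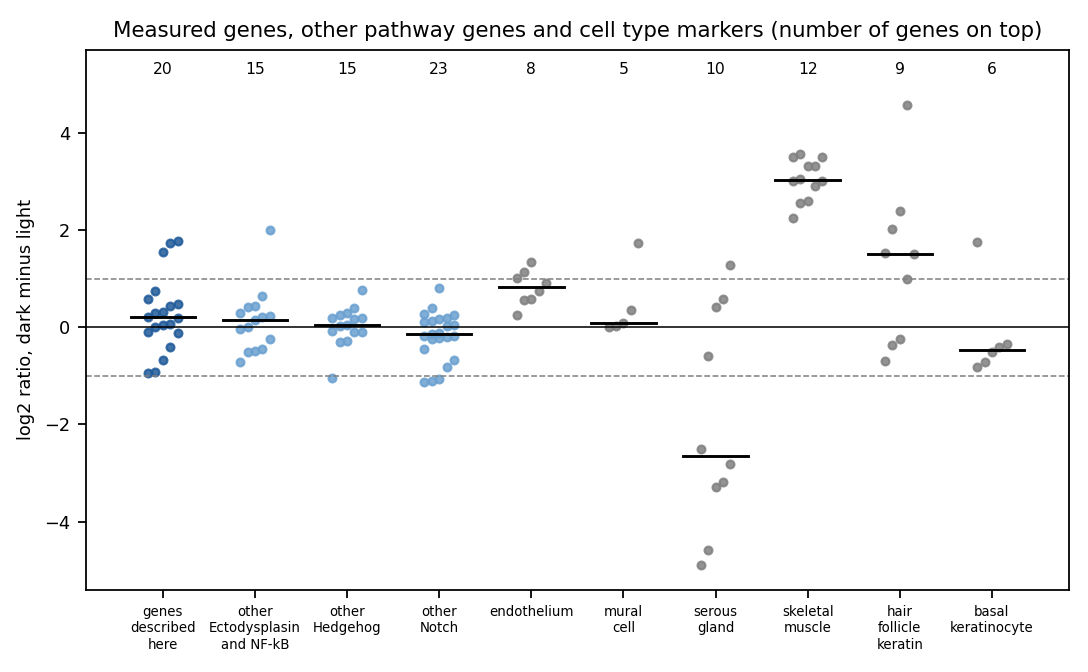
Log2 ratio (vertical axis, dark minus light) of each gene, as points, for the 20 genes described here, for other genes of the same pathways and for markers of cell types; black bars are medians, dashed lines mark 2-fold and the number of genes stands on top. The pathway lists have medians between -0.14 and 0.20, while those of skeletal muscle (3.03) and serous gland (-2.65) stand far from 0 and that of endothelium (0.83) lies above the pathway lists.

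Among the regulators of the hair follicle, HR and VDR were measured. HR (hairless) is a corepressor needed for the hair cycle, and it binds VDR, the vitamin D receptor, which is needed for the same step. HR went from 2.48 to 2.35, a ratio of -0.13 ± 0.20, and VDR from -2.85 to -2.39, a ratio of 0.47 ± 0.21. The ratio of HR was smaller than its spot error, and that of VDR was larger but within 1.5-fold. FOXE1, FOXN1, FOXC1, FOXQ1, SOX9, SOX21, RUNX1, TRPS1 and CUX1 were not analysed here. Of the 9 measured keratin and other genes of the hair follicle, 5 were higher in the dark muzzle by at least 2-fold and 0 lower, with ratios from -0.70 to 4.57 and a median of 1.5, while their summed level went from 33.2 to 27.4. Most of that sum came from MSX2, a transcription factor, which went from 4.78 to 4.07 on the log2 scale. Without MSX2, left out after its values had been seen, the sum over the other 8 genes went from 5.81 to 10.6. Neither HR nor VDR was past 2-fold beside them.

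Probes of the same gene showed how far a ratio depended on the probe. All probes of a gene read the same RNA on each array, so their SD leaves out the spread between arrays and between animals. For the 9 pathway genes with more than 1 probe measured on both arrays, the SD of the log2 ratio between probes ranged from 0.075 (NUMBL) to 0.47 (HEYL) with a median of 0.20. Over 5363 such genes on the array the median was 0.17, and the 90th percentile was 0.60. A difference between neighbouring genes in the order of ratios, such as that between HES6 (-0.94) and GLI1 (-0.92), or between SUFU (1.72) and DLL4 (1.77), was smaller than this median. DISP1 (1.55) lay below both of the latter by less than the SD between its own probes, 0.42.

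**Figure D5:**
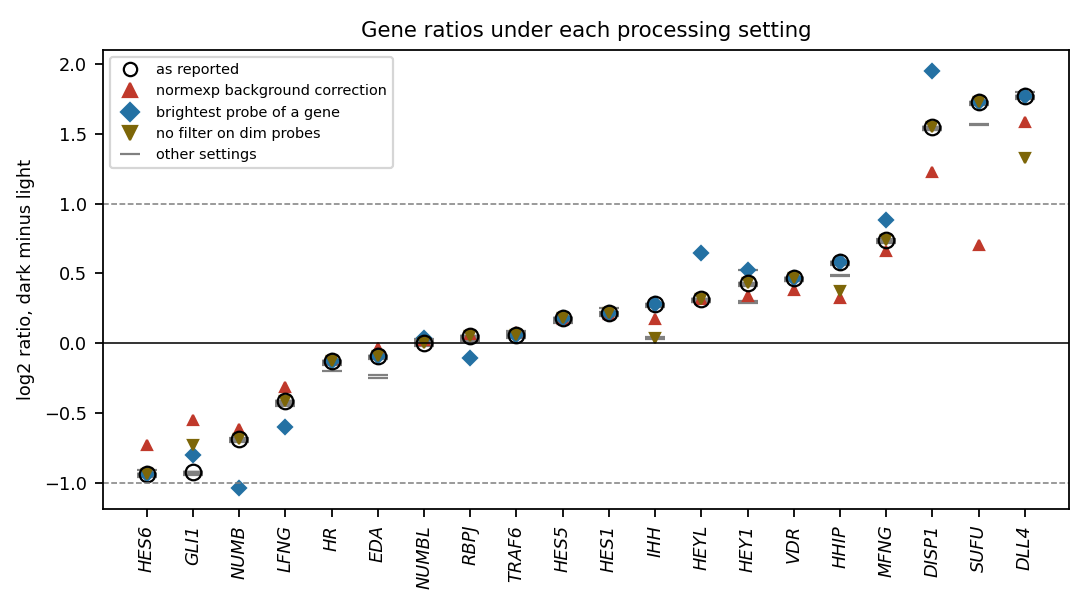
Gene value (vertical axis, log2 ratio of dark minus light) of each of the 20 genes as reported (open circles) and under the other processing settings (symbols), with dashed lines at 2-fold. The genes keep their sign except NUMBL and RBPJ, which lie near 0; SUFU drops to 0.70 under normexp background correction, and NUMB passes 2-fold when only its brightest probe is used.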

How the data were processed

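The authors deposited, for each array, the output of Feature Extraction 10.7.3.1. Its processed signal is an intensity that the software has background-subtracted and detrended. The series table deposited with it holds log2 values per probe made in GeneSpring. They (medians -2.47 and -2.45) lay within 0.01 of the levels used here for 99.97% of the probes on the light-muzzle array and 99.98% on the dark-muzzle array. Control spots and outlier spots (13 per array) were left out, log2 processed signals were shifted by the 75th percentile of the array, and spots of a probe were averaged. No spot was saturated.

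A symbol was taken by accession from RefSeq's gene table for assembly ARS-UCD2.0 (20587 of 43639 probes); no coordinate was used, since the array was designed on another build. A gene's ratio is the mean over probes well above background on both arrays, or, where there were none, the largest bound. A bound sets the bright level against the detection limit of the other array (its lowest probe well above background), or against the dim level itself where that is higher. Errors of single ratios combine the errors deposited for both spots. Levels and ratios were given in full for genes past 2-fold, with disagreeing probes or above background on 1 array, and for the others by value or range. With 1 array per group no test was made, and their number limits the precision. The genes and lists were chosen with earlier results of these data known. The steps were tested on simulated data. Quantile, loess and normexp values came from limma 3.58.1 (R 4.3.3); the other steps used Python 3.11.15, numpy 2.4.6, pandas 2.3.3 and matplotlib 3.10.9.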

Additional observations from a re-analysis of the deposited data

How the results depend on the processing

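The alternatives were quantile and loess (span 0.3) normalization, a shift by the 50th percentile or none, normexp (offset 50) on the median pixel signals, dim probes included without a filter or left out altogether, outlier spots retained, the deposited log2 values, the brightest probe of a gene, probes in place of genes, and thresholds of 1.5-fold and 3-fold. An alternative that left out probes less than 1 log2 unit above the detection limit, and the alternatives for the other pathway genes, were added after the data had been seen. Of 218 gene values under these alternatives, 202 moved by less than 0.17, the median SD between probes of a gene, and 16 by more. Of the values past 2-fold, 0 changed sign. Several alternatives could hardly move a value, so that the count overstates stability. Another shift changes all ratios by the same small constant. Retained outlier spots, the deposited values and leaving dim probes out gave nearly the same ratios. Under normexp DISP1, DLL4, GLI1, HES6, HHIP and SUFU moved by more than 0.17. NUMBL and RBPJ, near 0, changed sign. The count of at least 2-fold higher genes was 2 or 3 over the alternatives that count genes, and 6 when probes were counted. At other thresholds, 4 genes were higher at 1.5-fold and 2 at 3-fold. The 2-fold count was 2 under normexp and 2 with the added filter. In the first case SUFU fell below 2-fold; the added filter left SUFU and IHH out. The count of at least 2-fold lower genes was 0, except 1 with the brightest probe (NUMB) and 2 when probes were counted. At 1.5-fold, 3 genes were lower. Of the other pathway genes, 1 was higher and 4 were lower as reported; 2 were lower under normexp, where NCSTN and MAML2 fell short of 2-fold while CCND1 and DTX3 did not, and 2 were higher without a filter on dim probes (TRAF5 and PRKACB). With the brightest probe the 4 lower genes held PSEN2 in place of NCSTN. The cause of these moves was not tested. The offset of normexp by itself draws the ratios of dim probes toward 0, and its part was not separated. The median log2 ratio of these genes, or of their probes, lay between 0.054 and 0.20. Using only symbols written in the array files was not run, because those files carry accessions alone. No paired analysis was possible because each group has 1 array and the labels give no replicate numbers. Ratios of SUFU, IHH, HHIP and EDA rest on dim probes, and most probes of TRAF5 were dim as well.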
